A study of Mus musculus with 8 samples.

Results

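The regions described here are the promoter regions of coding genes that carry no CpG island annotation, in the chromatin of microglial nuclei. A region was taken if it lay on chromosomes 1 to 19, if its centre was at most 1000 bp from the nearest annotated transcription start site, if the nearest gene was protein-coding, and if its detailed annotation did not begin with CpG. This rule used no measured value. It gave 23182 of the 129304 regions listed (17.9%), at 12342 genes. Acetylation of histone H3 at lysine 27 (H3K27ac) was measured at these regions by chromatin immunoprecipitation and sequencing, in mice with and without the gene Grn. Grn encodes progranulin, a secreted glycoprotein that is delivered to lysosomes.

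Brain nuclei came from C57BL/6 mice aged 2 years, either wild type (WT) or with a knockout of Grn (GrnKO). Fixed nuclei from frozen hemibrains were sorted as positive for PU.1, the transcription factor of myeloid cells, and negative for OLIG2 and NEUN, which mark oligodendrocyte-lineage and neuronal nuclei. Each replicate pooled the nuclei of 2 mice, and each genotype had 2 replicates, each with an H3K27ac library and an input library of chromatin without immunoprecipitation. The sources used here do not give the sex of the mice or which bases the knockout allele lacks, and n = 2 pools per genotype limits every value below.

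Acetylation of H3K27 is placed by the acetyltransferases p300 and CBP on the nucleosomes that flank active promoters and enhancers. The promoters of housekeeping genes are usually rich in CpG dinucleotides, which stay unmethylated there. Promoters poor in CpG often belong to genes used in few cell types, and in microglia many genes of surface receptors and immune functions have such promoters.

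The absence of a CpG annotation did not mean that a promoter was poor in CpG. The promoter regions that the table annotates as CpG island, 2416 in number, all lay at least 101 bp downstream of a start site, at a median of 453 bp, and no region nearer to a start site or upstream of it carried that annotation. The CpG content was therefore read from RefSeq promoter windows (build GRCm38, from 250 bases before to 50 bases after the start), which could be paired with 17618 of the 23182 regions (76.0%). Because under 80% were paired, the classes below hold for the paired regions and cannot be extended to all. Of the paired regions, 48.1% had a CpG-rich window (observed to expected CpG ratio over 0.75 and GC content over 55%), 17.1% had a CpG-poor window (ratio under 0.48), and 34.8% were intermediate. Of the 1837 paired regions annotated as CpG island, 63.9% had a CpG-rich window. The regions are accordingly called coding promoter regions below, by their rule.

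The bases just before the start site are shown for 6 genes whose promoter regions were higher in GrnKO, chosen because they span this range of CpG content. Each run holds the 200 bases before the start, 5′ to 3′ on the gene's strand, from RefSeq on mm10/GRCm38, with CpG dinucleotides in capitals.
Ifi207: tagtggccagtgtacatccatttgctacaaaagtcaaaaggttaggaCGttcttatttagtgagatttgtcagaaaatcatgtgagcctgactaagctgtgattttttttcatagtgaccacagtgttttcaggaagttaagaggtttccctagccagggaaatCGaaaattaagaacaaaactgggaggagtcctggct
Stra6l: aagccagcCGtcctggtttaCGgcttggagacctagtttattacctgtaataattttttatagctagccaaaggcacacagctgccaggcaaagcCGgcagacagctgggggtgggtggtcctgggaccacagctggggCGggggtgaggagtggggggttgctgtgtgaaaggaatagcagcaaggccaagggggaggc
Rragd: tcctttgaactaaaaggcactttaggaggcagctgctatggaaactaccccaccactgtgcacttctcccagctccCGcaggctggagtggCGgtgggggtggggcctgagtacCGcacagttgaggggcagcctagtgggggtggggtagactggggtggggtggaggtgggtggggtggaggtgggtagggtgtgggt
Gpnmb: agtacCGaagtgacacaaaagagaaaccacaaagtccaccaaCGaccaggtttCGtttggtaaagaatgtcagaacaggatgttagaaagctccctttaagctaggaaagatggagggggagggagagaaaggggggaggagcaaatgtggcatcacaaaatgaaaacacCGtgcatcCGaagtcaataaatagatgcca
Vat1: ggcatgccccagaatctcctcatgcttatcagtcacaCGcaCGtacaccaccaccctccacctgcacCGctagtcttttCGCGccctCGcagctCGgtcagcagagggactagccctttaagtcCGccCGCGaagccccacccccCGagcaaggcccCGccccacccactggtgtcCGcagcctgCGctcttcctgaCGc
Fnip2: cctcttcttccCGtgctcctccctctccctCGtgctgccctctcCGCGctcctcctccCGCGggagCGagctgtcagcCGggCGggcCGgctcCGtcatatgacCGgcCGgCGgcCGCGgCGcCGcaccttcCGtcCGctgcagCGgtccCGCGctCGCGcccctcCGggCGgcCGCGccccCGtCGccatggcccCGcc
Ifi207 lies on chromosome 1 at chr1:173741810-173742009 (minus strand) and has 2 CpG in its run. Stra6l, at chr4:45848616-45848815 (plus strand), has 4, and Rragd, at chr4:32982798-32982997 (plus strand), has 3. These 3 windows were CpG-poor, with observed to expected ratios of 0.15, 0.23 and 0.25. The window of Gpnmb, at chr6:49036318-49036517 (plus strand), was intermediate at 0.59, with 5 CpG in the run. Vat1, at chr11:101466200-101466399 (minus strand), has 15 CpG and Fnip2, at chr3:79567680-79567879 (minus strand), has 32. Their windows were CpG-rich, at 0.92 and 1.03.

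Regions are 800 bp wide and often lie beside each other: 5405 genes had 1 region, 4300 had 2, and 2637 had 3 or more. Of the regions, 15593 (67.3%) overlapped another one, so neighbouring regions share reads and are not independent. Upstream of the start lay 12746 regions and at or after it 10436. By annotated feature, 16805 were promoter, 3450 intron, 1178 exon, 1163 5′ UTR, 263 repeat element, 198 transcript end, 105 non-coding transcript and 20 3′ UTR. At the distance limit, 471 regions lay over 950 bp from the start, with a median level of 11.3 scaled tags, and 453 coding regions lay up to 50 bp beyond the limit, with a median of 12.7. Values are tags, with 2 aligned read ends per tag, which the authors scaled to 10000000 per library.

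The 4 H3K27ac libraries held 15491642.5 to 20030832 tags. Tags in all listed regions made up 49.4% of WT replicate 1 and 63.3% to 65.7% of the other libraries. After scaling to library totals alone, all tested regions had a median log2 change (GrnKO minus WT) of 0.22. With the TMM normalization used below, which sets the bulk of regions equal between libraries, it was -0.002. TMM raises the values of WT replicate 1 relative to the other libraries (its factor was 0.825), so changes are relative to the median region, and levels are given before TMM. Of 9 microglial marker genes, 8 had a promoter region, with summed levels of 2377 and 3234 in WT and 2859 and 2776 in GrnKO. Of 8 neuronal markers 2 had a region, summing to at most 3.99 scaled tags in each library. Of 7 astrocyte markers 5 had one (45.5 to 66.7 in sum), as had 5 of 8 oligodendrocyte markers (45.4 to 63.9). Promoter regions on the Y chromosome, 8 in number, summed to 5.81 (replicate 1) and 269.6 (replicate 2) scaled tags in WT and to 0 and 220.2 in GrnKO, so each genotype had a library with few or no Y tags and a library with many.

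The coding promoter regions together held 10.7% and 13.6% of the tags of WT replicates 1 and 2 and 13.9% and 13.98% of those of GrnKO. The means were 12.1% ± 2.03 and 13.9% ± 0.0771 (SD, n = 2 each), and both WT libraries were below both GrnKO libraries, WT replicate 1 by far more than WT replicate 2. With 2 libraries against 2 no permutation p can be under 0.333, and the exact two-sided test gave that value. The difference of 1.80 percentage points was 0.361 without WT replicate 1 and 3.24 without WT replicate 2. Of the tags in listed regions, the share was 21.6% and 21.4% in WT and 21.4% and 21.3% in GrnKO. In the input libraries, 0.541% to 0.752% of tags lay at the coding promoter regions. The median level per region was 21.3 and 25.8 scaled tags in WT and 28.4 and 28.0 in GrnKO. In each library it was above that of regions over 1000 bp from a start site (7.42 to 8.87).

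Where the window was CpG-rich, regions centred near the start site had a lower median level than regions centred further to either side. Each region spans 800 bp, and each bin holds different regions (2179 at 0 to 100 bp upstream and 243 at 300 to 400 bp upstream). The values are therefore no profile of the mark along a promoter, and whether the bins differ in their genes was not tested. In CpG-rich windows the median level of regions centred 0 to 100 bp upstream of the start was 28.4 and 35.5 scaled tags in WT and 36.7 and 38.2 in GrnKO. At 300 to 400 bp upstream it was 36.8 and 46.4 in WT and 51.7 and 50.9 in GrnKO, and at 100 to 200 bp downstream 38.4, 44.2, 50.8 and 48.2, so each library had this order. In CpG-poor windows the level of regions next to the start was lower, at 20.98 and 21.97 in WT and 25.1 and 26.7 in GrnKO just upstream of it. No lower median at the start stood out there from the changes between neighbouring bins. WT replicate 1 was the lowest library in most bins, as it was for the whole set.

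**Figure D1:**
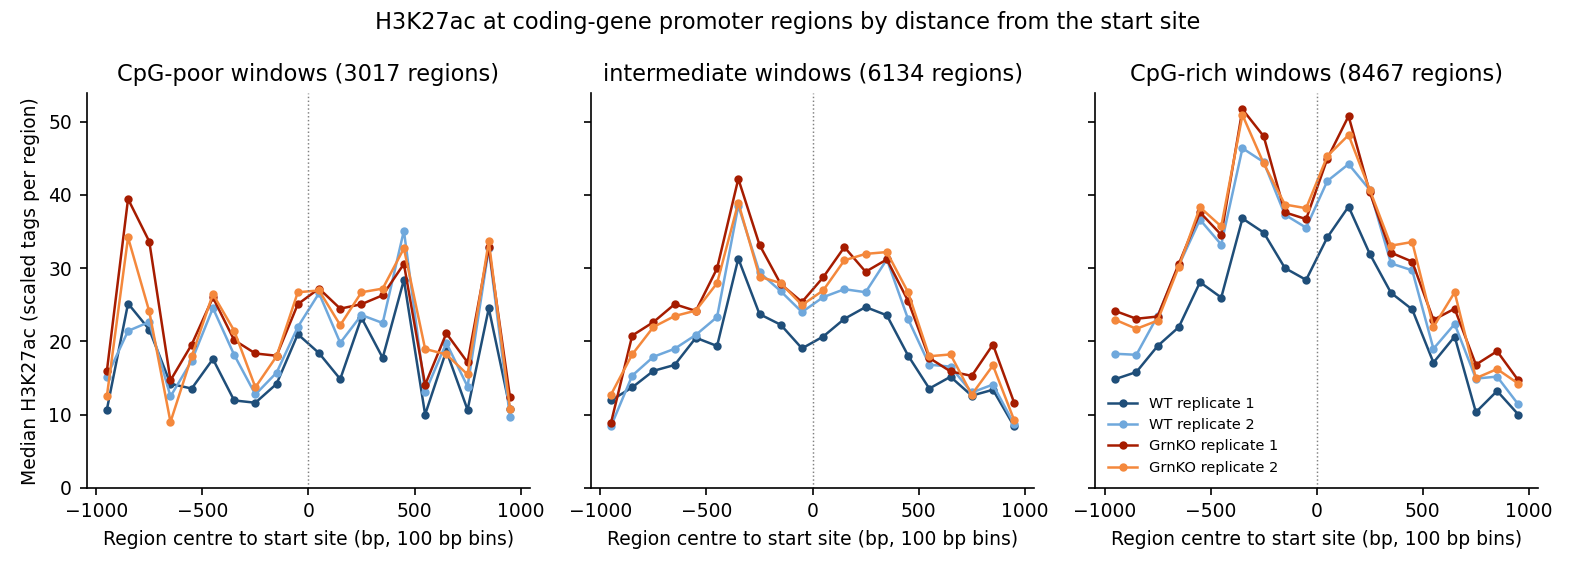
Median H3K27ac per region in scaled tags (vertical axis) in 100 bp bins of the distance from the region's centre to the start site (horizontal axis, negative is upstream), for regions with CpG-poor, intermediate and CpG-rich windows, with a line per library. In the CpG-rich panel all 4 libraries are lower just upstream of the start (28.4 to 38.2) than 300 to 400 bp upstream (36.8 to 51.7).

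The promoter regions with the most H3K27ac included genes of myeloid surface receptors and signalling. The 10 genes whose region nearest the start had the highest mean level were Phyhd1, Cd300c2, Ifngr2, Laptm5, Cx3cr1, Arhgap22, Tyrobp, Crybb1, Ctsz and Flcn, with means of 719.6 down to 552.2 scaled tags. Phyhd1, which encodes a phytanoyl-CoA dioxygenase domain protein, had 599.0 and 773.6 scaled tags in WT and 734.6 and 771.3 in GrnKO. Cx3cr1, the fractalkine receptor, had 520.0 and 691.4 in WT and 609.8 and 499.2 in GrnKO. Tyrobp, which encodes the signalling adaptor of TREM2, had 415.7 and 665.6 in WT and 561.8 and 632.3 in GrnKO. Before TMM the WT replicates differed from each other at these 3 genes by more than the genotype means did, so the order of neighbours by level is within that spread. After TMM this no longer held at Phyhd1 (725.8 and 746.9 in WT, 679.4 and 712.9 in GrnKO) and Cx3cr1 (630.01 and 667.6 in WT, 564 and 461.4 in GrnKO). Of the 10, Crybb1 alone passed the test between genotypes.

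The comparison of GrnKO with WT asks how loss of progranulin changes the acetylation of these promoters. After a filter on low values 17821 regions were tested and 5361 were not. Of those tested, 906 passed the threshold (limma on log2 of the value plus 1, Benjamini-Hochberg adjusted p under 0.05 over all 80728 tested regions), 609 higher and 297 lower in GrnKO. They belonged to 629 genes, 422 with higher and 207 with lower regions, and no gene had regions in both directions. The share called was 5.08%, beside 9.71% of all tested regions, 11.5% of regions over 1000 bp from a start and 5.24% of promoter regions annotated as CpG island. By direction, 3.42% of the coding promoter regions were higher and 1.67% lower, beside 6.8% and 2.92% of all tested regions. A change of at least 2-fold was seen at 430 of the higher regions (2.41% of those tested, beside 5.22% of all tested regions) and at 100 of the lower (0.561%, beside 1.05%). An unadjusted p under 0.05 was reached by 15.8% of the coding promoter regions and by 23.9% of all tested regions. Of the higher regions 42, and of the lower regions 6, passed the filter on low values through 1 genotype alone, since both libraries of the other were under its level of 5.75 scaled tags. Such a region had to differ to be tested, so its call is given as a description and supports nothing. The 42 and 6 leave out regions where only 1 library of a genotype was under that level. Among regions called, the median log2 change was 1.31 for the higher and -0.86 for the lower regions. The median log2 change over all coding promoter regions was -0.01. In sorted nuclei of pooled mice, a different mix of cells and a different level per cell cannot be told apart.

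The number of regions called depended on the libraries and the scaling. Without GrnKO replicate 1 the call was made for 95 higher and 23 lower regions (0.662% of those tested, beside 1.67% of all tested regions), and without GrnKO replicate 2 for 120 and 49 (0.948%, beside 2.33%). Without WT replicate 1 it was made for 1070 and 571 (9.21%, beside 16%), and without WT replicate 2 for 1452 and 765 (12.4%, beside 17.8%). Each of these fits sets 2 libraries against 1, and the lone library is assumed to vary like the others. With the authors' scaling alone, 775 regions were higher (4.35%) and 34 lower (0.191%), 4.54% in all, beside 8.15% and 0.412% of all tested regions, so the lower calls in particular rest on the choice of scaling. edgeR called 5.06% of the coding promoter regions and DESeq2 3.65%, beside 9.64% and 7.19% of all regions tested.

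**Figure D2:**
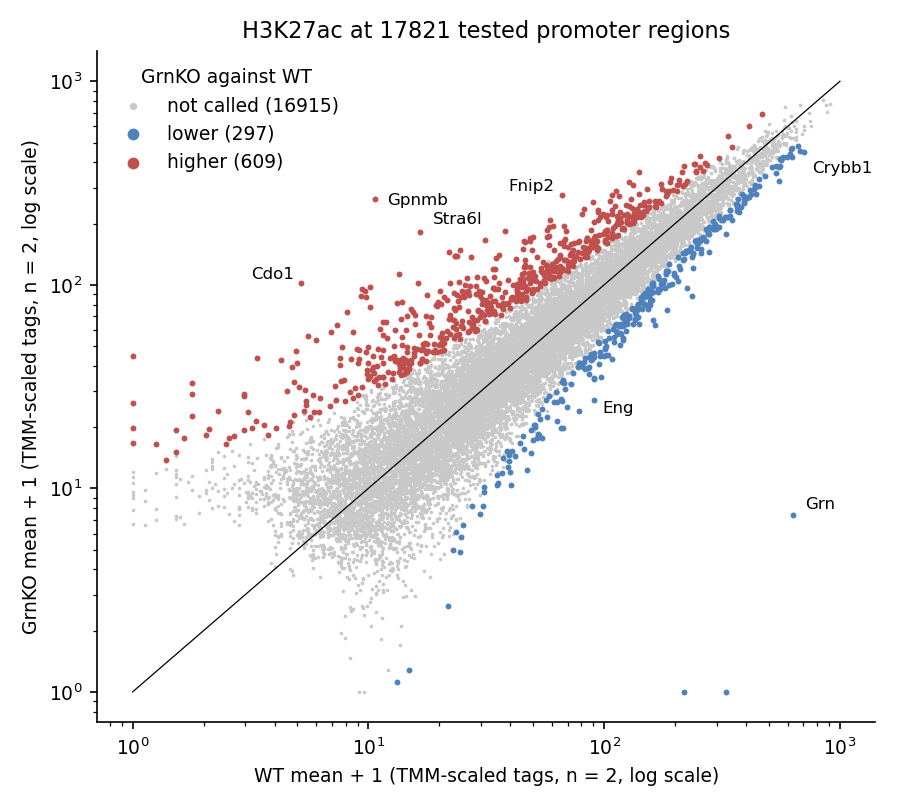
Mean H3K27ac of the 2 GrnKO libraries (vertical axis) against that of the 2 WT libraries (horizontal axis) at the 17821 tested coding promoter regions, in scaled tags after TMM plus 1, on log axes, with 609 regions called higher in red, 297 called lower in blue and the line of equal levels. Gpnmb lies far above the line and the Grn regions far below it, while most regions called lower lie close to the line.

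The knockout was visible at the promoter of Grn itself, which checks the labels. The region centred 13 bp upstream of its start had 294 and 311 scaled tags in WT and 0 in both GrnKO libraries, and the region 886 bp downstream had 205 and 193 in WT and 0 in both. The region centred 631 bp upstream (chr11:102429291-102430091) had 584.5 and 572.6 in WT and 7.34 and 6.49 in GrnKO, a 98.6-fold lower mean after TMM. All 3 Grn regions were lower in both GrnKO libraries. Those at 13 and 886 bp passed the filter on low values through WT alone, so their calls are a description only. The region 631 bp upstream was over the filter's level in all libraries and was called lower (limma, adjusted p = 1.7e-10). Reads cannot come from bases that an allele lacks, and whether the mark or the DNA is missing at these regions was not tested.

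The promoter regions with the clearest gains included genes that act at lysosomes (Gpnmb, Rragd and Fnip2) and in autophagy (Atg7), beside genes of other functions. The 12 with the smallest p, at most 1 per gene, were those of Gpnmb, Stra6l, Cdo1, Gpr162, Atg7, Sorbs3, Gramd1b, Cant1, Sash1, Vat1, Fnip2 and Rragd. The rule that names them requires both GrnKO libraries above both WT libraries. Each passed the threshold under all 11 other settings tried, including the authors' scaling and each library left out.

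Gpnmb, which encodes a transmembrane glycoprotein of phagocytes and lysosomes, had 9.04 and 8.68 scaled tags in WT and 307 and 261 in GrnKO. Its region lies in the first kilobase of the gene, 570 bp after the start (chr6:49036688-49037488, intron), and its level was 27.2-fold higher in GrnKO (log2 change 4.63, SE 0.29, adjusted p = 1.1e-07). In WT this level is in the range of the lowest of 4 groups of equal size by level (means up to 18.7 scaled tags), and in GrnKO in that of the highest (from 92.5).

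Rragd and Fnip2 encode parts of the machinery that reports amino acids to mTORC1 at the lysosome: RagD is a GTPase and FNIP2 a partner of folliculin. Rragd had 5.16 and 12.5 scaled tags in WT and 113.8 and 94.6 in GrnKO at its region 382 bp after the start (log2 change 3.32, SE 0.39, adjusted p = 3.9e-05). WT replicate 1 was under the level of the filter on low values there, so the WT libraries by themselves would not have passed this region. Fnip2 had 38.1 and 87.9 in WT and 286.9 and 310.0 in GrnKO at 444 bp after the start (log2 change 2.12, SE 0.24, adjusted p = 2.7e-05). The window of Rragd is CpG-poor and that of Fnip2 CpG-rich. The change at Fnip2 was larger inside the gene than before the start: the log2 change was 2.33 at 829 bp and 2.12 at 444 bp after the start and 0.88 at 145 bp before it, and these regions overlap.

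Atg7, which encodes the E1-like enzyme of autophagy, had 26.5 and 29.3 scaled tags in WT and 185.0 and 172.0 in GrnKO at 798 bp after its start (log2 change 2.41, SE 0.25, adjusted p = 1.3e-05). At the start itself Atg7 had 68.1 and 45.8 in WT and 119.6 and 84.4 in GrnKO, which did not pass (adjusted p = 0.22). Gramd1b, which encodes a carrier of cholesterol from the plasma membrane to the endoplasmic reticulum, had 20.98 and 20.1 in WT and 149.6 and 146.5 in GrnKO (log2 change 2.57, SE 0.28). The GrnKO libraries were within a few tags of each other at Gramd1b and far above WT.

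Stra6l encodes a receptor for retinol-binding protein. It had 9.36 and 20.6 scaled tags in WT and 202.5 and 188.0 in GrnKO at 545 bp before its start (log2 change 3.50, SE 0.31, adjusted p = 3.2e-06). Vat1, a vesicle membrane protein gene, had 7.75 and 16.3 in WT and 121.4 and 120.8 in GrnKO (log2 change 3.10, SE 0.34). Sash1, which encodes a signalling scaffold, had 6.46 and 9.22 in WT and 110.1 and 94.6 in GrnKO (log2 change 3.35, SE 0.37). These 3 promoters were low in both WT libraries. The input libraries had up to 39.2 scaled tags at the Stra6l region, in WT replicate 1, which is below the level of the GrnKO H3K27ac libraries and rests on few input reads.

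The other 4 of the 12 were Cdo1 (cysteine dioxygenase), Gpr162 (an orphan G protein-coupled receptor), Sorbs3 (the adaptor vinexin) and Cant1 (a nucleotidase). Their log2 changes were 4.30, 2.28, 2.63 and 2.55, with SE of 0.42, 0.23, 0.28 and 0.28. Cdo1 was the lowest of them in WT, at 3.23 and 4.61 scaled tags, and had 115.6 and 102.6 in GrnKO, so it passed the filter on low values through GrnKO alone.

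The promoter regions with the smallest p among those lower in GrnKO, apart from Grn, lost less than the others gained. Those given here belonged to 6030468B19Rik, Ptp4a3, Slc12a9, Eng, Tmem176b, Gal3st4, Sall1, Sema4a, Mybph and Crybb1, with log2 changes from -0.66 to -1.74. Of these 10, 7 passed the threshold under all other settings. Sall1, Mybph and Crybb1 did not pass with the authors' scaling, where their adjusted p was 0.24, 0.13 and 0.39, while their log2 changes stayed below 0.

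Eng, which encodes endoglin, a co-receptor of TGF-beta, had 69.1 and 99.6 scaled tags in WT and 26.3 and 30.2 in GrnKO (log2 change -1.74, SE 0.29, adjusted p = 0.00089). Sema4a, a semaphorin gene, had 56.2 and 89.5 in WT and 22.9 and 26.96 in GrnKO (log2 change -1.70, SE 0.32). Tmem176b, which encodes a membrane protein of myeloid cells, had 173.6 and 161.1 in WT and 89.9 and 70.6 in GrnKO (log2 change -1.28, SE 0.22). The rule that names these genes requires both GrnKO libraries below both WT libraries. The uncharacterised gene 6030468B19Rik had 189.5 and 246.8 in WT and 79.2 and 109.8 in GrnKO (log2 change -1.43, SE 0.20, adjusted p = 0.00019). Ptp4a3, which encodes a phosphatase, had 178.5 and 240.1 in WT and 92.7 and 114.8 in GrnKO (log2 change -1.22, SE 0.19).

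Sall1 encodes a transcription factor that maintains microglial identity. Its region 958 bp before the start had 439.9 and 585.6 scaled tags in WT and 305.8 and 389.6 in GrnKO (log2 change -0.78, SE 0.14, adjusted p = 0.0013), and its region 60 bp before the start had 386.3 and 650.7 in WT and 386.0 and 499.0 in GrnKO, which did not pass (adjusted p = 0.093). Crybb1, a crystallin gene that microglia express, had 576.8 and 729.9 in WT and 419.6 and 546.9 in GrnKO (log2 change -0.66, SE 0.13, adjusted p = 0.0029). The loss at Sall1 and Crybb1 was a fraction of a high level: the mark remained strong in both GrnKO libraries. Without GrnKO replicate 1 the regions of Sall1, Crybb1 and Mybph did not pass.

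**Figure D3:**
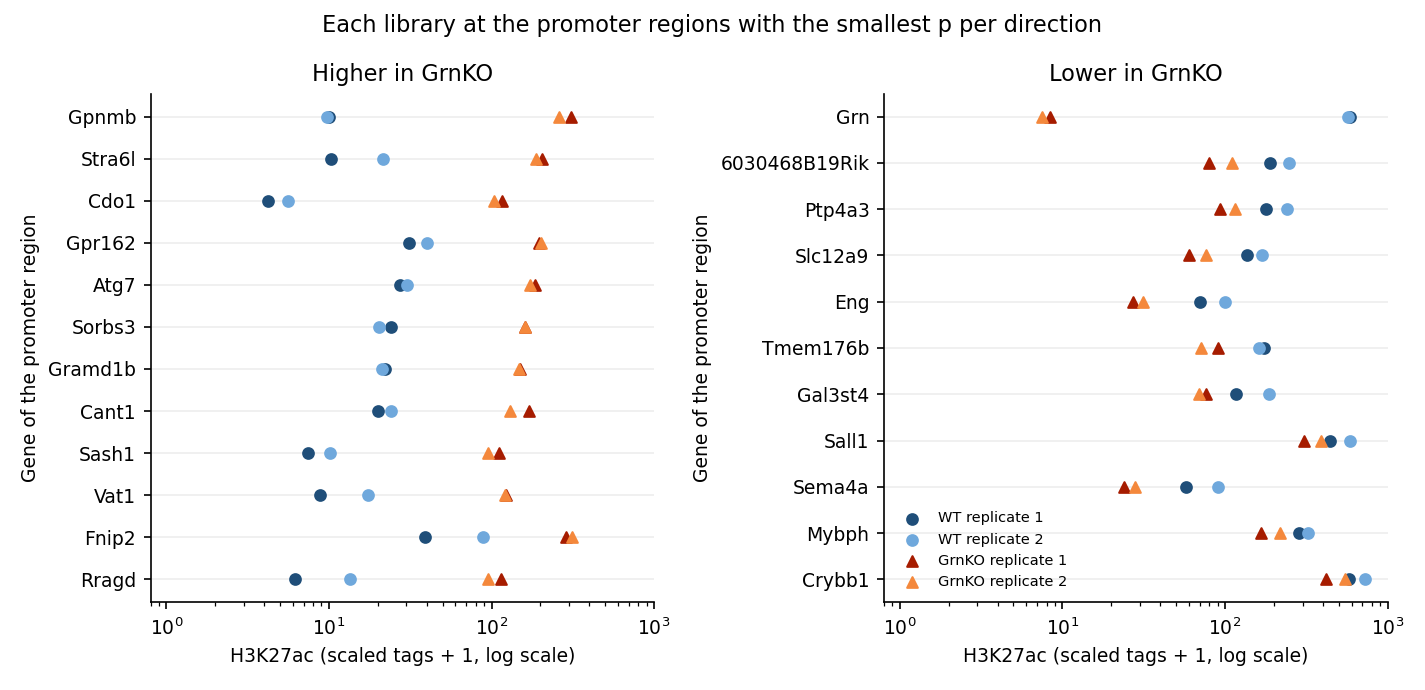
H3K27ac in scaled tags plus 1 (horizontal log axis, before TMM) of each library at promoter regions with the smallest p, 12 higher and 11 lower with Grn, with WT libraries as circles and GrnKO libraries as triangles. At Gpnmb the WT libraries sit at about 9 and the GrnKO libraries at 307 and 261, whereas at Crybb1 the GrnKO library at 546.9 sits next to the WT library at 576.8.

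Promoter regions with CpG-poor windows had the highest share of calls. Of 2118 tested regions with CpG-poor windows, 142 were higher and 100 lower (11.4% called). Of 4716 intermediate regions, 125 were higher and 57 lower (3.86%), and of 7024 CpG-rich regions, 187 were higher and 68 lower (3.63%). The CpG-poor share lies near that of all tested regions (9.71%) and of distal regions (11.5%), and the other 2 classes lie below both. Among the 3963 tested regions without a paired window, 5.73% were called. The difference between classes was not tested, since neighbouring regions share reads. It was also seen on either side of the median level. Among regions at or above the median level of tested regions (42.5 scaled tags), 15.9% of CpG-poor, 5.38% of intermediate and 5.24% of CpG-rich regions were called. Below it 5.83%, 2.60% and 1.95% were called. This split does not hold the level fixed, and the share called also rose with the level. The median level of tested regions at or above the split was 123.7 (CpG-poor), 86.5 (intermediate) and 87.3 (CpG-rich) scaled tags. Below the split it was 16.2, 18.1 and 20.2, the opposite order. Among regions annotated as promoter alone, 11.04%, 3.12% and 3.25% were called.

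The CpG-poor class had the highest share called under all 12 settings, main and alternative. With the authors' scaling, 161 CpG-poor regions were higher and 9 lower (8.03% called, beside 8.56% of all tested regions). Without GrnKO replicate 1 the counts fell to 19 and 6 (1.18%, beside 1.67%), and without GrnKO replicate 2 to 26 and 19 (2.12%, beside 2.33%). Without WT replicate 1 they were 210 and 164 (17.7%, beside 16%), and without WT replicate 2 they were 250 and 176 (20.1%, beside 17.8%). The CpG-poor share was thus on either side of that of all regions, depending on the setting. Of the calls, 58.7% were higher among CpG-poor and 73.3% among CpG-rich regions, but with the authors' scaling nearly all were higher in each class.

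**Figure D4:**
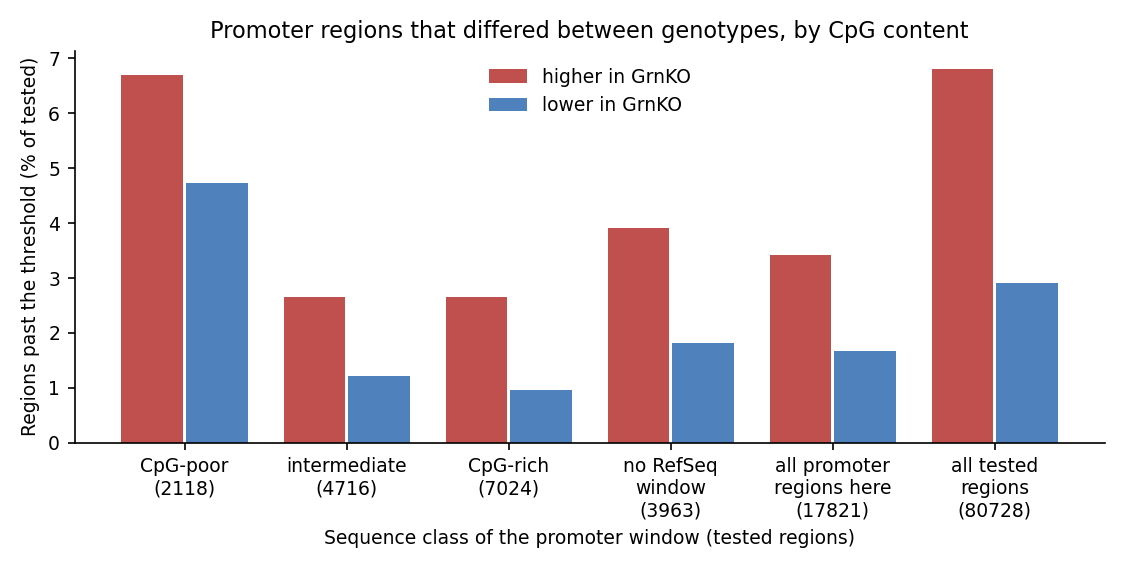
Share of tested regions past the threshold (vertical axis, percent) that were higher (red) or lower (blue) in GrnKO, by CpG class of the promoter window, with the number tested in brackets. CpG-poor promoter regions reach 6.70% higher and 4.72% lower, against 2.66% and 0.968% of CpG-rich promoter regions.

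The share called differed with the distance from the start, by values that were not tested and that all lie below the 9.71% of all tested regions. Within 200 bp upstream of the start 3.66% of the 6400 tested regions were called, 158 higher and 76 lower. At 800 to 1000 bp downstream 8.74% of 904 were called, 52 higher and 27 lower, although the median level there was lower (11.9 and 13.02 scaled tags in WT against 23.2 and 29.0 just upstream). The shares were not ordered throughout, with 4.90% within 200 bp downstream and 4.47% at 200 to 400 bp. By feature, 8.63% of tested regions in introns and 4.36% of those annotated as promoter were called. The share called also rose with the level. With the tested regions ranked by level in 4 groups of equal size, 1.26%, 3.93%, 6.13% and 9.02% were called, from the lowest group to the highest. In the lowest group 44 regions were higher and 12 lower, and in the highest 222 were higher and 180 lower.

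Some genes have several start sites. Of 321 genes with tested regions at start sites over 2000 bp apart, 64 had a region called, and 55 had a site with a call and a site without. With 5.08% of coding promoter regions called, most sites have no call, and nothing is read from the 55. The genes named here were chosen after their values were seen, and the difference between sites was not tested. Rtn4, which encodes the membrane protein Nogo, was higher at an inner site (chr11:29718304-29719104, CpG-poor window), with 11.9 and 23.3 scaled tags in WT and 79.5 and 88.4 in GrnKO (log2 change 2.04, SE 0.34). At its CpG-rich upstream site Rtn4 had 119.7 and 146.5 in WT and 134.6 and 131.6 in GrnKO (log2 change -0.22, SE 0.19, adjusted p = 0.54). The upstream site of Rtn4 thus carried the stronger mark in all 4 libraries, and the inner site carried the change.

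Idh1, which encodes the cytosolic isocitrate dehydrogenase, was called at one start site and not at the other. The region at chr1:65185305-65186105 had 16.8 and 20.3 scaled tags in WT and 81.4 and 105.6 in GrnKO (log2 change 2.05, SE 0.32). The Idh1 region 44 bp after its other start had 32.6 and 91.1 in WT and 115.3 and 112.8 in GrnKO, with both GrnKO libraries above both WT libraries (log2 change 0.83, SE 0.30, adjusted p = 0.096, which did not pass). E2f2, a cell-cycle transcription factor gene, had 39.4 and 43.4 in WT and 147.7 and 113.3 in GrnKO at a site inside the gene (log2 change 1.40, SE 0.25). At its first site E2f2 had 32.6 and 28.2 in WT and 40.7 and 23.96 in GrnKO, and the GrnKO libraries lay on both sides of WT.

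The lists of genes described next were represented by the region nearest each gene's start. Over all 9428 genes with such a region tested, 260 were higher and 124 lower (4.07% called), with a median log2 change of -0.03. The median level of tested genes was 41.4 scaled tags over all of them and 42.7 (MHC class II) to 242.1 (homeostatic) in the 12 lists. The share called also differs with the level, as given above, and no list's share was tested against that of all genes. Median changes shift up by about 0.22 with the authors' scaling, so a median is best read against that of all coding promoter regions under the same scaling.

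Of 40 tested genes of disease-associated microglia, the state seen around plaques and in ageing, 11 were higher, 1 was lower and 28 did not pass (30% called), with a median log2 change of 0.53 (0.75 with the authors' scaling, beside 0.21 for all coding promoter regions). The higher genes were Gpnmb, Igf1, Lgals3, Fabp5, Cd63, Ctsb, Cst7, Apoe, Timp2, Fabp3 and Plin2, of which Fabp3 passed the filter on low values through GrnKO alone. Igf1, the growth factor gene, had 30.7 and 46.9 scaled tags in WT and 157.5 and 129.6 in GrnKO (log2 change 1.66, SE 0.25, adjusted p = 0.00035), and all 8 of its tested coding promoter regions were higher. Lgals3, which encodes galectin-3, had 14.9 and 32.3 in WT and 98.2 and 116.3 in GrnKO (log2 change 2.01, SE 0.32). Fabp5, a fatty-acid binding protein gene, had 42.9 and 18.5 in WT and 171.9 and 130.3 in GrnKO (log2 change 2.14, SE 0.36). The libraries of the 2 genotypes did not overlap at these 3 genes, but the genes were named for their small p, so nothing is read from that.

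Lpl, the lipoprotein lipase gene, went the other way. It had 39.4 and 46.4 scaled tags in WT and 7.03 and 17.5 in GrnKO (log2 change -2.06, SE 0.46, adjusted p = 0.0078), and it was also lower with the authors' scaling. Without GrnKO replicate 1 the Lpl region did not pass (log2 change -1.46, adjusted p = 0.18). Tyrobp and Ctsz, the listed genes with the highest levels among those that did not pass, had log2 changes of -0.05 and 0.30. With GrnKO replicate 1 left out, or GrnKO replicate 2, 4 genes of the list were higher.

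Genes of lysosomes and lipid handling had most of their calls in the same direction. Of 68 tested, 16 were higher, 2 (Grn and Lpl) were lower and 50 did not pass (26.5% called), with a median log2 change of 0.31 (0.54 with the authors' scaling). Some genes stand in this list and the previous one. The higher genes were Gpnmb, Hpse, Rragd, Fabp5, Cd63, Sgsh, Naglu, Ctsb, Gaa, Fnip2, Galc, Mcoln1, Atp6v1a, Lamp1, Atp6v1h and Plin2. The region of Rragd nearest its start, which stands for it here, passed the filter through GrnKO alone, and that of Grn through WT alone. Among them Sgsh, Naglu, Gaa and Galc encode lysosomal hydrolases, Mcoln1 a calcium channel of lysosomes, and Atp6v1a and Atp6v1h subunits of the proton pump. Hpse, the heparanase gene, had 10.0 and 5.43 scaled tags in WT and 93.0 and 106.8 in GrnKO (log2 change 3.36, SE 0.41, adjusted p = 5.6e-05). WT replicate 2 was under the filter's level at Hpse, so the WT libraries by themselves would not have passed its region. Cd63, which encodes a tetraspanin of late endosomes, had 179.1 and 214.3 in WT and 386.0 and 390.4 in GrnKO (log2 change 0.76, SE 0.15, adjusted p = 0.0026). Flcn, which encodes folliculin, had 492.5 and 492.6 in WT and 618.7 and 604.8 in GrnKO, which did not pass (log2 change 0.09). Flcn shows the effect of the scaling: both GrnKO values were above WT before TMM. Leaving out GrnKO replicate 1, 3 genes of the list were higher and 1 lower, and without GrnKO replicate 2, 5 were higher and 2 lower.

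Among homeostatic genes, which resting microglia express, 7 of 35 were lower, none was higher and 28 did not pass (20% called), with a median log2 change of -0.21, but with the authors' scaling none was called (2 at an unadjusted p under 0.05, both lower) and the median was 0.01, beside 0.21 for all coding promoter regions. The 7 were Crybb1, Hpgd, Nav3, Selplg, Siglech, Sparc and Il10ra. Hpgd, a prostaglandin dehydrogenase gene, had 153.3 and 240.1 scaled tags in WT and 124.5 and 132.1 in GrnKO (log2 change -0.80, SE 0.19, adjusted p = 0.01). Siglech, a sialic-acid binding receptor gene, had 300.5 and 469.8 in WT and 291.5 and 290.1 in GrnKO (log2 change -0.59, SE 0.15, adjusted p = 0.014). At Siglech WT replicate 1 was close to both GrnKO libraries before TMM. Cx3cr1 had a log2 change of -0.35 (adjusted p = 0.084) and Trem2 of 0.22 (adjusted p = 0.36). Without WT replicate 1, 11 genes were lower, and without WT replicate 2, 1 was higher and 6 were lower. Without GrnKO replicate 1 none was called, and without GrnKO replicate 2, 3 were lower.

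**Figure D5:**
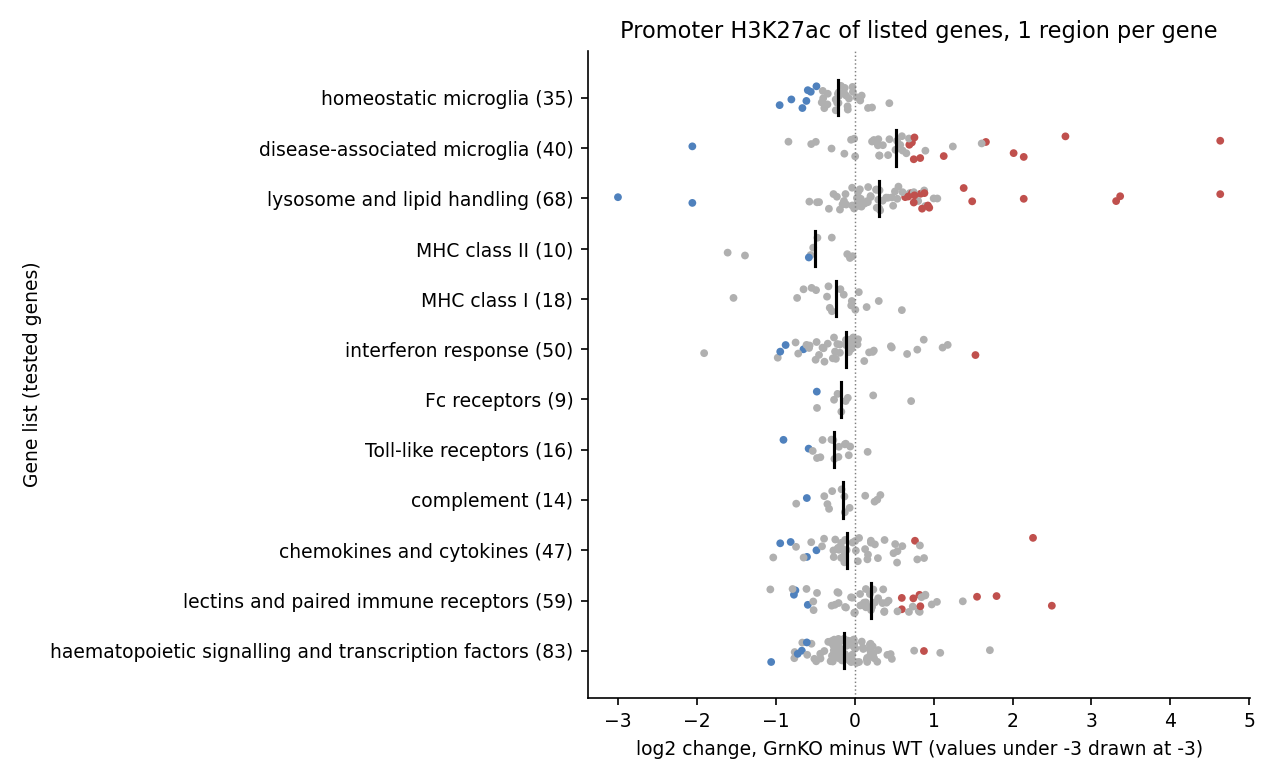
Log2 change of H3K27ac, GrnKO minus WT after TMM (horizontal axis), at the promoter region nearest the start of each listed gene (points; red called higher, blue called lower, grey not called) in 12 gene lists, with the median of each list as a black bar and the number of tested genes in brackets; points are spread vertically at random and Grn is drawn at -3. The medians of the disease-associated (0.53) and lysosome and lipid (0.31) lists lie to the right of 0, and that of the homeostatic list lies to the left (-0.21), which becomes 0.01 with the authors' scaling.

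The list of lectins and paired immune receptors, which set the threshold of myeloid activation, also holds genes of other families, among them Ms4a7, Ms4a4a and Adgre5. It had 8 of 59 genes higher, 3 lower and 48 that did not pass (18.6% called), with a median log2 change of 0.21. The higher genes were Ms4a7, Cd300lf, Ms4a4a, Treml2, Cd22, Siglec1, Havcr2 and Adgre5, and the lower genes Siglece, Siglech and Slamf8. Adgre5 passed the filter through GrnKO alone. With the authors' scaling 12 were higher and none lower. Left without GrnKO replicate 1, the list had 2 higher and no lower genes, and without GrnKO replicate 2, 1 higher and no lower gene. Cd300lf, an inhibitory lipid receptor gene, had 194.6 and 207.2 scaled tags in WT and 401.2 and 430.6 in GrnKO (log2 change 0.82, SE 0.15, adjusted p = 0.0016). Ms4a7, a tetraspan membrane protein gene, had 30.7 and 30.7 in WT and 142.2 and 114.1 in GrnKO (log2 change 1.80, SE 0.27, adjusted p = 0.00033).

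Ms4a7 and Siglec1 are also markers of macrophages at the borders of the brain, which PU.1 sorting would keep. Of 9 such markers 6 had a promoter region, and their summed level was 281 and 369 scaled tags in WT and 652 and 549 in GrnKO. Ms4a7 and Siglec1 passed the test, and Mrc1, Pf4, F13a1 and Cbr2 did not (adjusted p from 0.30 to 0.98). Mrc1, the mannose receptor gene, had 32.6 and 87.1 in WT and 92.4 and 90.4 in GrnKO. Pf4, the platelet factor gene, had 15.2 and 24.7 in WT and 31.2 and 15.7 in GrnKO, so the genotypes overlapped there. The neutrophil marker S100a8 had 0 and 5.43 in WT and 22.02 and 20.2 in GrnKO and was called higher (adjusted p = 0.036), but it passed the filter on low values through GrnKO alone. It was the only neutrophil marker of 7 with a region. The endothelial marker Flt1, read at a CpG-annotated region, had 5.81 and 11.4 in WT and 64.8 and 67.7 in GrnKO and was called higher, while Kdr, the other endothelial marker with a region of 6, had 15.8 and 38.5 in WT and 52.6 and 58.7 in GrnKO and did not pass. The part of other cell types in the changes above and below was not tested. T cell markers were near 0, with 1 of 7 having a region (at most 0.92 scaled tags), and the only monocyte marker with a region, Vcan, had at most 3.8. Of 5 B cell markers 3 had a region, with sums of 26.8 and 13.3 in WT and 9.48 and 9.24 in GrnKO. Of these Cd79b alone was tested, and it did not pass (log2 change -1.11, limma, adjusted p = 0.26).

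No gene of antigen presentation was called higher. Of 10 tested MHC class II pathway genes, none was higher and 1, H2-Ob, was lower, and all 10 had a negative log2 change (median -0.50, or -0.29 with the authors' scaling). H2-Ob, which encodes a chain of the H2-O modulator of peptide loading, had 170.4 and 230.02 scaled tags in WT and 149.6 and 159.5 in GrnKO (log2 change -0.58, adjusted p = 0.041). This call was lost with the authors' scaling, with DESeq2, without the filter on low values and without either GrnKO replicate, while 4 class II genes were lower without WT replicate 2. The antigen-presenting genes themselves were low. H2-Ab1 had 28.7 and 8.68 in WT and 9.17 and 4.49 in GrnKO, and H2-Eb1 had 31.0 and 17.6 in WT and 15.3 and 4.24 in GrnKO, with log2 changes of -1.39 and -1.61 that did not pass (adjusted p = 0.23 and 0.11). Of 18 MHC class I genes, none was called by limma, edgeR or DESeq2, 4 had an unadjusted p under 0.05 in limma, all lower, and the median was -0.24, or -0.01 with the authors' scaling. Without WT replicate 1, 1 class I gene was lower, and without WT replicate 2, 3 were. B2m, the light chain gene, had 246.3 and 318.7 in WT and 309.2 and 326.8 in GrnKO (log2 change -0.04).

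Of 50 tested interferon response genes, 1 was higher, 3 were lower and 46 did not pass (8% called, beside 4.07% of all genes). Ifi207, a DNA-sensor family gene whose CpG-poor promoter is shown above, had 61 and 61.3 scaled tags in WT and 203.1 and 214.4 in GrnKO (log2 change 1.53, SE 0.21, adjusted p = 0.00015). All 3 of its tested coding promoter regions were higher. Of 8 tested regions assigned to the gene in all, no others were called. Ifi207 belongs to a family of similar genes in a cluster, so reads shared with its copies are uncertain. Gbp5, a guanylate-binding protein gene, had 68.8 and 76.0 in WT and 43.4 in both GrnKO libraries (log2 change -0.94, SE 0.27, adjusted p = 0.036). Gbp7 and Parp14 had log2 changes of -0.88 and -0.65. The median of the list was -0.11, and 0.09 with the authors' scaling, where Ifi207 was the only listed gene called. None was lower without the filter on low values or without either GrnKO replicate, and 10 were lower without WT replicate 2.

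Of 47 chemokine and cytokine genes, 2 were higher (Cxcr4 and Ccrl2) and 4 lower, among them Il6, Ccl9 and Il10ra (12.8% called). Cxcr4, the receptor of CXCL12, had 27.1 and 8.41 scaled tags in WT and 90.2 and 89.6 in GrnKO (log2 change 2.26, SE 0.45, adjusted p = 0.0035). Of 83 genes of haematopoietic signalling and transcription factors, Bhlhe40 was higher and Itgam, Samsn1, Batf3 and Cebpe were lower (6.02%). Bhlhe40, a transcription factor gene, had 105.2 and 107.7 in WT and 232.7 and 226.7 in GrnKO (log2 change 0.88, SE 0.19, adjusted p = 0.0055). Of 9 Fc receptor genes Fcgr1 was lower (11.1%), of 16 Toll-like receptor genes Tlr5 and Tlr12 were lower (12.5%), and of 14 complement genes Itgam was lower (7.14%), each by less than 1 on the log2 scale. Without GrnKO replicate 1 or GrnKO replicate 2 no gene of these 5 lists was called, and without WT replicate 2, 7 chemokine and cytokine genes were higher and 6 lower. With the authors' scaling none of the genes named lower in this paragraph was called, and across all 12 lists only Grn and Lpl were called lower.

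Motif letters in the RefSeq windows were counted on either strand, as a description. The E-box CACGTG, the sequence bound by MITF and TFE factors among others, stood in 45 of 335 windows of higher regions (13.4%), in 6.47% of 170 windows of lower regions, in 10.7% of 7929 windows of regions tested and not called, and in 7.15% of all 32851 windows in the table. Among CpG-rich windows it stood in 23 of 136 windows of higher regions (16.9%) and in 12.2% of those not called. Among CpG-poor windows it stood in 5 of 106 windows of higher regions (4.72%) and in 6.18% of those not called, the opposite order. The TATA box TATAAA stood in 9.85% of windows of higher regions, 7.06% of lower, 6.38% of those not called and 13.6% of all. The PU.1 motif GAGGAAGT stood in 3.58%, 5.29%, 3.68% and 3.20% in the same order. In the runs printed above, the motif of interferon regulatory factors, GAAA, any 2 bases and GAAA again, was found as GAAATCGAAA 41 bases before the start of Ifi207. The GC box GGGCGG was found 121 and 33 bases before the start of Fnip2 and 64 bases before that of Stra6l, and on the opposite strand 77 and 44 bases before that of Vat1. None of the 6 printed runs holds CACGTG.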

How the data were processed

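H3K27ac and input libraries of sorted PU.1-positive nuclei were read from a table of 129304 regions. The deposited values are a signal: per the file headers, region tags were divided by the library total and multiplied by 10000000 by the authors. The submitters' processing notes name Bowtie2, HOMER, DESeq2 and mm10, without the role of each, and the handling of duplicate reads is not given in the sources used here. Multiplying by the library totals returned whole read ends for 100% of values in all 8 columns (tolerance 0.005 scaled tags, 2 ends per tag). Input totals were 4078179 to 14415969 tags. Detection floors of 3 tags were 1.50 to 1.94 scaled tags in the H3K27ac libraries and cover counting error only.

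The test was limma 3.58.1 (R 4.3.3) on log2(value + 1) after TMM (edgeR 4.0.16), with genotype as the only term and trended eBayes, on the 80728 regions that passed filterByExpr (minimum 10 tags). The log2 scale with pseudocount 1 understates the change of low regions. p-values were adjusted by Benjamini-Hochberg over all tested regions at 0.05. They measure the spread between pools. edgeR's quasi-likelihood test on the recovered tags called 902 coding promoter regions and DESeq2 1.42.0 called 650. Other alternatives were the scaling, pseudocount, filter, replicate block, distance limit and each library left out. Scripts were tested on simulated data. The share of tags was tested by exact permutation over libraries.

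Named regions were the 12 per direction with the smallest p (both GrnKO values beyond both WT values, 1 per gene), up to 6 genes per list with the smallest p plus up to 2 of the highest level that did not pass, the 10 genes of highest level, and Grn. One of the regions that this rule names is not reported here, and some of the genes it allows are given only by their list's counts. The members and lists were chosen with earlier results of these data known. The CpG classes, the match of a region's start to a RefSeq start within 100 bp, the split by level and the 2000 bp between start sites were chosen after seeing the data.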

Additional observations from a re-analysis of the deposited data

How the results depend on the processing

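Of 1231 values of the 112 named regions under alternatives, 1061 stayed on the same side of the threshold with the same sign, 113 lost the call, 31 gained it, and 26, at 17 regions that passed in neither fit, had the other sign. With the authors' scaling, log2 changes below 0 became 0.0085 at Fcgr3, 0.056 at Fcer1g, 0.087 at H2-T24, 0.090 at Ncf1, 0.096 at C5ar2, 0.11 at Cd180, 0.14 at Fcrls and Phyhd1, 0.17 at Ifngr2, 0.18 at B2m and Tyrobp, 0.19 at Inpp5d and 0.20 at Cd86. Without the filter on low values they became 0.0025 at Inpp5d and 0.015 at Cd86. Over the fits that leave out 1 library, the change ran from -0.10 to 0.026 at Inpp5d, -0.075 to 0.25 at Flcn, -0.11 to 0.18 at Irgm1, -0.098 to 0.047 at Cd86, -0.0035 to 0.45 at Trem2, -0.30 to 0.026 at Ncf1, -0.22 to 0.13 at Tyrobp and -0.094 to 0.17 at Il21r. The authors' scaling alone moved the lower calls from 297 to 34 (from 100 to 9 among CpG-poor regions) and the median log2 change of the coding promoter regions from -0.01 to 0.21 (from -0.06 to 0.16 among CpG-poor regions), as it moved that of all regions, and 612 of the 906 calls were shared. By direction, 95.8% of calls were higher with it and 67.2% with TMM. Without the filter on low values 136 regions were lower, and 2.83% were called, beside 4.50% of all regions in that fit. Of CpG-poor regions 40 were then lower and 159 were called in all (5.31%). The cause of these changes was not tested. With a limit of 500 bp, which tests fewer regions (13264), 387 were higher and 187 lower, 574 in all. Leaving out 1 library gave 118 to 2217 calls, 95 to 1452 higher and 23 to 765 lower, and 25 to 426 CpG-poor calls, 19 to 250 higher and 6 to 176 lower. These fits have fewer samples, with 1 residual degree of freedom. The share of tags at the coding promoter regions differed by 1.80 percentage points as a share of the library (0.361 to 3.24 with 1 library left out) and by -0.195 as a share of the tags in listed regions. With a CpG ratio under 0.6 as the cutoff, tried after seeing the data, 8.90% of 3248 regions were called.

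The labels do not say that a replicate number marks shared mice, litters or batches, and the deviations of same-numbered libraries had a correlation of 0.015 over the coding promoter regions. In both genotypes replicate 1 had few or no Y-chromosome tags (5.81 in WT and 0 in GrnKO) and replicate 2 had many (269.6 and 220.2), so the number goes with that trait, whose part in the calls was not tested. With the replicate block, 921 regions were higher and 531 lower (1452 in all), including all 906. That was 8.15% of the coding promoter regions tested, beside 14.1% of all tested regions. Of CpG-poor regions 155 were lower, with 16.9% called in all. Lower too were 2 MHC class I genes, of which the main fit called none.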
